A study of Mus musculus with 16 samples.

Results

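The immediate early transcription factors described here are FOS, FOSB, FOSL1, JUN, JUNB, JUND, ATF3, EGR1, MYC and KLF6, chosen by gene symbol. The choice was made with earlier results of these data known. Of these 10 genes, 9 had a row among the 18132 genes of the mouse kidney array table, 8 under their own symbol and JUND under its older symbol JUND1. FOSL1 was not analysed here. Total RNA from 16 mouse kidneys, 1 array per kidney, was hybridized to Illumina bead arrays, on which the brightness of a probe follows the amount of its transcript. The design sets obstructed kidneys against untreated ones, in wildtype mice and in mice that lack interleukin-33, a cytokine that is also found in the cell nucleus.

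Unilateral ureteral obstruction (UUO) closes 1 ureter, here with a metal clip, so that urine backs up into the kidney behind it. Wildtype (WT) mice were C57/BL6 by the labels. IL-33 KO mice, which were made without the gene, had been backcrossed to C57BL/6J BomTac. There were 7 WT UUO kidneys and 5 IL-33 KO UUO kidneys, taken 24 h after ligation, and 2 WT and 2 IL-33 KO control kidneys without treatment, so that surgery itself was not controlled for by sham animals. The methods give an age of 8 weeks unless otherwise stated. UUO kidneys came from 2 sets of mice, set 1 with 3 WT and 2 IL-33 KO kidneys and set 2 with 4 WT and 3 IL-33 KO kidneys, while the labels give no set for controls. Kidneys are named by the number in their label.

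Immediate early genes are transcribed within minutes of a stimulus from proteins already present in the cell, and their transcripts are short-lived. FOS and JUN proteins, with ATF relatives, pair through leucine zippers into the dimers called AP-1, while EGR1 and KLF6 bind DNA through zinc fingers and MYC binds together with MAX. In the kidney they are known as early responders to ischemia, stretch and toxic injury of the tubule.

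The labels were first set against the data. IL33, the deleted gene, had log2 intensities of 6.80 to 7.02 in all 7 IL-33 KO kidneys, of 7.62 and 8.02 in the WT controls and of 8.39 to 9.57 in the WT UUO kidneys, so that genotypes did not overlap. The kidney markers SLC34A1 and UMOD were bright in all 16 arrays. SLC34A1, the phosphate carrier of the proximal tubule, lay between 12.23 and 14.35 on the log2 scale. UMOD, the uromodulin of the loop of Henle, lay between 12.70 and 13.95. Other tubule markers were dim in all arrays, with LRP2 of the proximal tubule at 7.05 to 7.63 and CALB1 of the distal tubule at 6.72 to 6.90. The injury markers HAVCR1 and LCN2 separated every UUO kidney from every control, with HAVCR1 at 7.07 to 7.37 in controls and 10.42 to 13.95 after UUO. Of the UUO kidneys, WT 3820 had the lowest HAVCR1, LCN2 and KRT20, at 10.42, 11.81 and 8.11, and the highest SLC12A1, the salt carrier of the loop of Henle, at 10.97 where the other UUO kidneys had 7.83 to 9.90. WT 3818 was next lowest for HAVCR1, at 12.84. The counts of factors, their spread and their correlations are given with and without these 2 kidneys.

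JUN and JUNB, the Jun partners of AP-1 dimers, were higher after UUO in both genotypes. JUN log2 intensity was 7.66 and 7.78 in the WT controls, and 8.17 at the lowest, 8.76 at the median and 8.98 at the highest of 7 WT UUO kidneys. In IL-33 KO it was 7.46 and 7.45 in controls against 8.76, 8.49, 8.69, 8.53 and 8.55 after UUO. Each UUO kidney thus lay above each control of its genotype, and the WT value nearest to the controls was that of kidney 3818. In bulk tissue, fewer or more cells of a type and less or more RNA per cell cannot be told apart. The log2 fold change of JUN was 0.98 (SE 0.15, n = 7 and 2) in WT and 1.15 (SE 0.15, n = 5 and 2) in IL-33 KO, with adjusted p-values of 0.000649 and 9.89e-05 in limma. With the UUO kidneys of set 1 alone the WT call was lost (adjusted p = 0.0968).

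JUNB, which competes with JUN for Fos partners, had 7.89 and 7.72 in WT controls and 8.02, 9.58 and 10.38 as the lowest, median and highest WT UUO kidney. IL-33 KO controls had 7.56 and 7.61 and IL-33 KO UUO kidneys 9.65, 9.65, 9.73, 9.71 and 9.33. The groups did not overlap in either genotype, but kidney 3818 lay 0.13 above the nearer WT control, while the 6 other WT UUO kidneys had 9.45 to 10.38. The log2 fold change was 1.73 (SE 0.39) in WT and 2.03 (SE 0.41) in IL-33 KO, with adjusted p-values of 0.00833 and 0.00222 in limma. The WT call was lost in 4 of 25 other settings. Among them were the UUO kidneys of set 1 alone and the fits without control 3811 or 3812. Across settings the adjusted p in WT ran from 8.14e-07 to 0.230 in limma. The IL-33 KO call was lost with set 1 alone (adjusted p = 0.0976). JUND, the Jun protein made in resting cells, overlapped in WT, with 7.58 and 7.44 in controls and 7.39 to 8.06 after UUO, where its log2 fold change was 0.16 (SE 0.12). In IL-33 KO it had 7.37 and 7.45 in controls and 7.47 to 7.72 after UUO, with no overlap and a log2 fold change of 0.21 (SE 0.12). Neither passed the test, with adjusted p-values of 0.486 and 0.274 in limma, the latter reaching 0.0113 with the UUO kidneys of set 2 alone.

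FOS, the partner of the Jun proteins, had 7.17 and 6.96 in WT controls and 7.14, 7.61 and 9.18 as the lowest, median and highest WT UUO kidney. IL-33 KO controls had 6.997 and 6.87, and IL-33 KO UUO kidneys 7.41, 7.63, 7.63, 7.84 and 7.52. In WT the groups overlapped through kidney 3818 alone, which lay between the controls, while kidney 3820 stood 0.99 above the next WT kidney, and in IL-33 KO all 5 UUO kidneys lay above both controls. The log2 fold change was 0.84 (SE 0.35) in WT and 0.67 (SE 0.37) in IL-33 KO, and neither passed, with adjusted p-values of 0.137 and 0.246 in limma. Both passed without kidney 3820, at adjusted p-values of 0.0476 and 0.0331, and without 3818 and 3820 they were 0.00439 and 0.00756, within ranges of 0.00439 to 0.476 in WT and 0.00139 to 0.609 in IL-33 KO over all settings. FOSB, a Fos relative, had 7.01 in both WT controls and 6.91 to 7.29 after UUO, and 6.98 and 7.05 against 6.88 to 7.02 in IL-33 KO. Its groups overlapped in both genotypes and its log2 fold changes were 0.04 (SE 0.07) and -0.06 (SE 0.08).

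**Figure D1:**
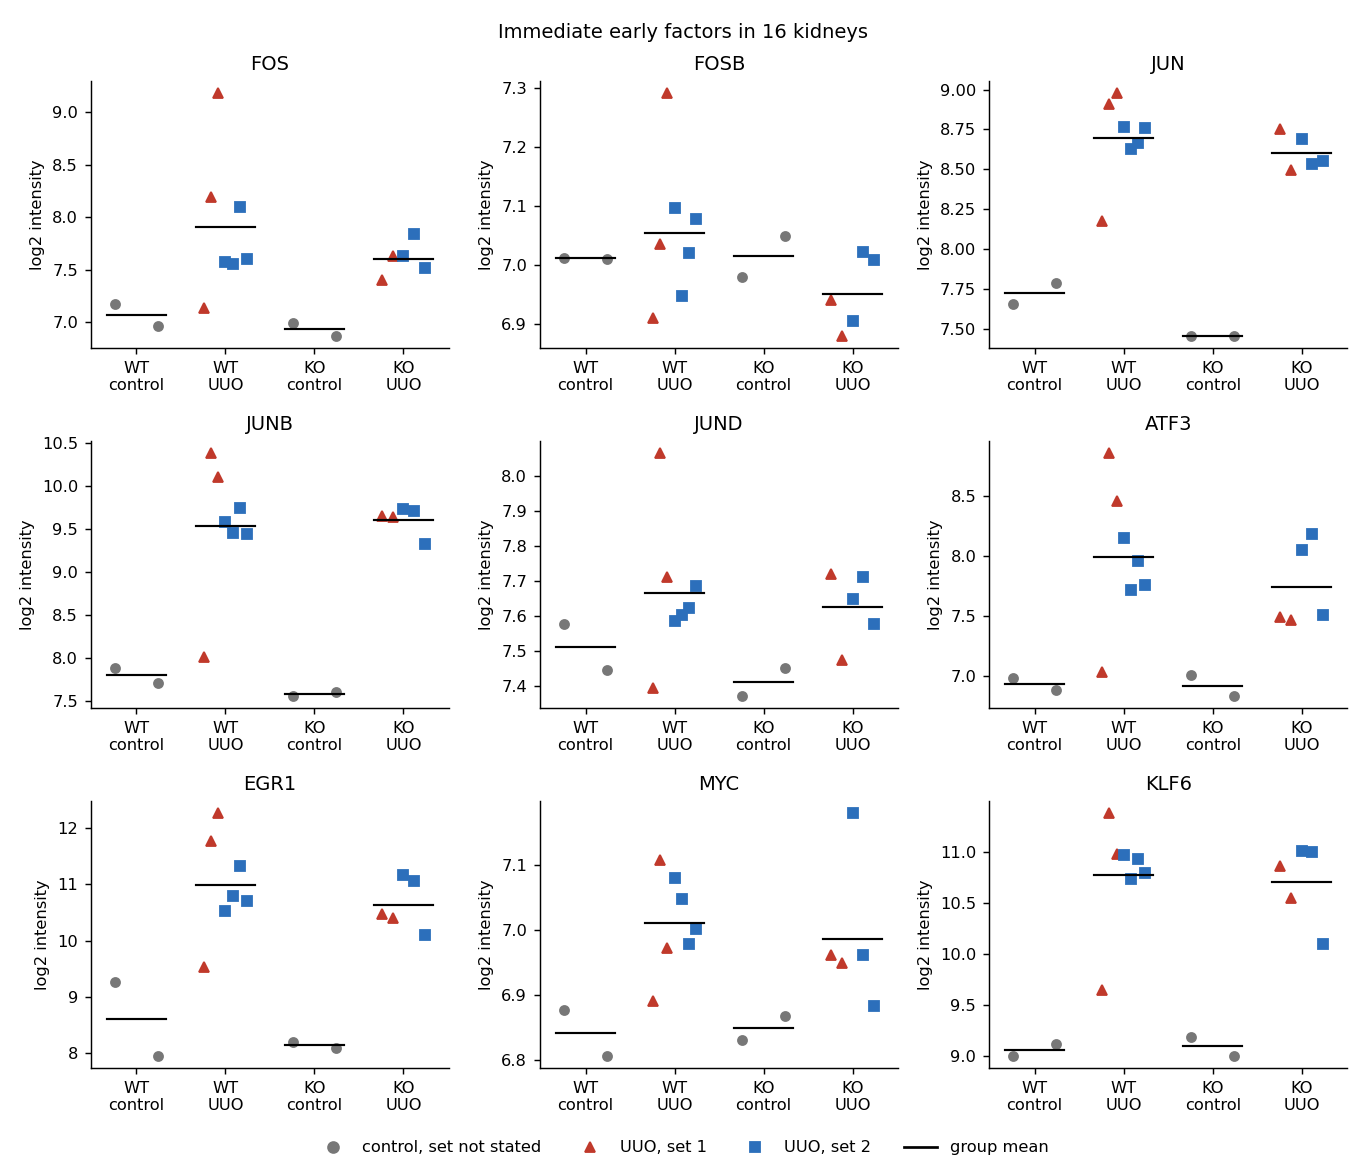
Log2 intensity (vertical axis, quantile-normalized) of the 9 immediate early factors in each of 16 kidneys, by group (horizontal axis). Each point is a kidney, its shape and color give the set of mice, and the line is the group mean. The WT UUO kidneys of set 1 hold both the lowest and the highest value of the group for every factor.

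ATF3, a stress-induced AP-1 partner that often represses its targets, had 6.98 and 6.88 in WT controls and 7.03, 7.96 and 8.86 as the lowest, median and highest WT UUO kidney. IL-33 KO controls had 7.004 and 6.83 and IL-33 KO UUO kidneys 7.49, 7.47, 8.05, 8.19 and 7.50. The groups did not overlap, although WT kidney 3818 lay 0.05 above a control, and in IL-33 KO 2 kidneys of set 2 stood above the other 3. The log2 fold change was 1.06 (SE 0.34) in WT, with an adjusted p of 0.0448 in limma, and 0.82 (SE 0.35) in IL-33 KO, with an adjusted p of 0.118. The WT call was at the edge: of 16 fits that each left out 1 kidney, it held in those without WT 3818, WT 3819 or IL-33 KO 3898 and was lost in the other 13, with adjusted p-values of 0.194 without control 3811, 0.259 without control 3812 and 0.0506 to 0.0720 otherwise, whereas the IL-33 KO value reached 0.0446 without WT kidney 3818. Over all settings the adjusted p ran from 0.000997 to 0.259 in WT and from 0.00108 to 0.592 in IL-33 KO.

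EGR1 is a zinc finger factor induced by growth factor and stress signals through serum response factor. Over all kidneys it had the largest fold change of the 9 in both genotypes. In WT this rank rests on control 3812, without which the fold change of KLF6 was larger. The log2 intensity of EGR1 was 9.26 and 7.95 in the WT controls and 9.54, 10.79 and 12.25 at the lowest, median and highest of the WT UUO kidneys. IL-33 KO controls had 8.21 and 8.09, and IL-33 KO UUO kidneys 10.46, 10.40, 11.17, 11.06 and 10.10. No UUO kidney overlapped with the controls of its genotype, but the WT controls lay 1.31 apart, and kidney 3818 was 0.27 above the higher of them. The log2 fold change was 2.38 (SE 0.53) in WT and 2.49 (SE 0.56) in IL-33 KO, with adjusted p-values of 0.00747 and 0.00427 in limma. Without control 3811 the WT log2 fold change was 3.04, and without control 3812 it was 1.72 and no longer passed (adjusted p = 0.185), the highest in a range from 0.000234 over all settings, and with the UUO kidneys of set 1 alone the adjusted p was 0.150 in WT and 0.132 in IL-33 KO.

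KLF6, a Kruppel-like factor known to be induced in injured epithelium, had 9.003 and 9.12 in WT controls and 9.65, 10.93 and 11.37 as the lowest, median and highest WT UUO kidney. IL-33 KO controls had 9.19 and 9.01 and IL-33 KO UUO kidneys 10.86, 10.54, 11.01, 11.00 and 10.09. All UUO kidneys lay above the controls, with kidney 3818 lowest in WT and kidney 3899 lowest in IL-33 KO. The log2 fold change was 1.71 (SE 0.32) in WT and 1.60 (SE 0.34) in IL-33 KO, with adjusted p-values of 0.00247 and 0.00275 in limma. With the UUO kidneys of set 1 alone neither passed, at adjusted p-values of 0.133 and 0.0747, the highest over all settings. MYC, a driver of growth and ribosome production, had 6.88 and 6.81 in WT controls and 6.89 to 7.11 after UUO, and 6.83 and 6.87 against 6.88 to 7.18 in IL-33 KO. Its UUO kidneys were above the controls in both genotypes by small steps, with log2 fold changes of 0.17 (SE 0.07) and 0.14 (SE 0.07) that did not pass (adjusted p = 0.109 and 0.200 in limma). The WT value passed without IL-33 KO kidney 3897 (adjusted p = 0.0383), in a range of up to 0.493. Intensities of MYC, 111.9 to 145.5, and of FOSB, 117.7 to 155.5, were close to the array medians of 132.3 to 133.4, where background compresses fold changes. The controls of ATF3, at 113.8 to 128.6, and of FOS, at 117.0 to 144.2, lay there too, so that their fold changes rest on control signals that the table, without detection p-values, does not set apart from background.

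In all, 5 of 9 factors were called higher in WT (JUN, JUNB, ATF3, EGR1 and KLF6) and none lower, where 6.97% of all genes were called higher and 8.22% lower. Since the factors were chosen with earlier results of these data known, their counts beside all genes are a description and not a test. In IL-33 KO 4 of 9 were called higher (JUN, JUNB, EGR1 and KLF6) and none lower, beside 10.6% of all genes higher and 11.2% lower. The median log2 fold change of the 9 factors was 0.98 in WT and 0.82 in IL-33 KO, beside -0.000759 and -0.00057 over all genes. In WT 6 factors had every UUO kidney above both controls, beside 10.2% of all genes, and in IL-33 KO 8 did, beside 17.5%. The WT count fell to 3 without control 3811 and to 2 without control 3812, when the number of all genes called went from 2754 to 1051 and 809. In IL-33 KO the count stayed at 4 or 5 whichever kidney was left out, while all genes called went from 3955 to 2276 without control 3813 and to 2575 without control 3814. Without WT kidneys 3818 and 3820, 7 factors were called in WT and 6 in IL-33 KO, whose fit shares the spread of all groups. All genes called then went to 4116 and 4565. Kidney 3818 had the lowest WT UUO value of all 9 factors, so that leaving it out by itself raises their WT UUO means.

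**Figure D2:**
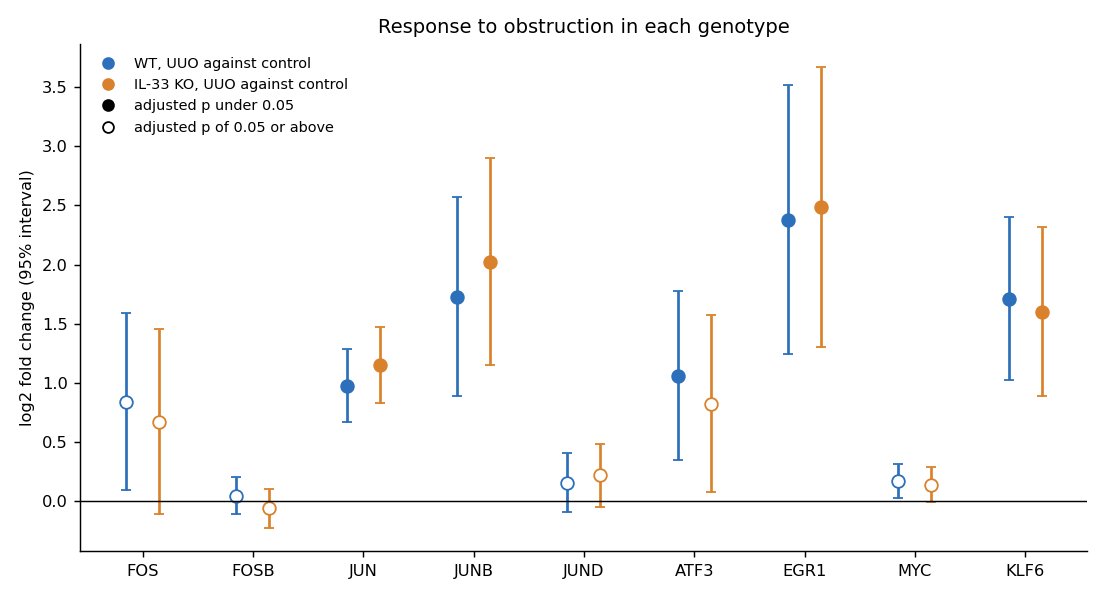
Log2 fold change of each factor after UUO against control (vertical axis) in WT and IL-33 KO kidneys, with 95% intervals from limma as bars and filled points for an adjusted p under 0.05. Over all kidneys the largest changes are those of EGR1, 2.38 in WT and 2.49 in IL-33 KO. The WT rank rests on control 3812, and the intervals of the genotypes overlap for each factor.

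The promoters of the factors called in WT that have an entry in the reference, JUN, JUNB, ATF3 and KLF6, are shown with that of FOS, the partner of the Jun proteins. They are the 250 bases before the start, 5′ to 3′ along the gene, from RefSeq for GRCm38.p6, and the set of promoters used here has an entry for 7 of the 10 factors. Capitals mark matches on either strand to TGACATCA, a variant AP-1 and ATF element, to TGACG, the core of the cyclic AMP response element, and to TATAAA, the TATA box. The regions are JUN at chr4:95052223-95052472, minus strand, KLF6 at chr13:5861239-5861488, plus strand, JUNB at chr8:84978749-84978998, minus strand, ATF3 at chr1:191183334-191183583, minus strand, and FOS at chr12:85473640-85473889, plus strand.
JUN: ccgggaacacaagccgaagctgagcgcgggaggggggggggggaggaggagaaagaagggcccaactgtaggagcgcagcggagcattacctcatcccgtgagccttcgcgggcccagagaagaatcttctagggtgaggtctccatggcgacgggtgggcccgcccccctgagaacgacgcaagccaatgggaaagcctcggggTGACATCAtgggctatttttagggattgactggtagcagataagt
KLF6: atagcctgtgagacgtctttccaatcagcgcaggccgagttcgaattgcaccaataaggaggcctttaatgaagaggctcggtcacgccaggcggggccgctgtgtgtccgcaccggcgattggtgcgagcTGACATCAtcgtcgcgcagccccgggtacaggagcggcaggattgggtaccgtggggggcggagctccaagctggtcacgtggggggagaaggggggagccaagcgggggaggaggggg
JUNB: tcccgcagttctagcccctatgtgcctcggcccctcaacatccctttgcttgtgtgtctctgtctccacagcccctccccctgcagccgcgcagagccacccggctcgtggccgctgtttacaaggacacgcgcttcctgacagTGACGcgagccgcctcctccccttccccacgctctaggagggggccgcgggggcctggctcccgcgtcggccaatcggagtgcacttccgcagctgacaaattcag
ATF3: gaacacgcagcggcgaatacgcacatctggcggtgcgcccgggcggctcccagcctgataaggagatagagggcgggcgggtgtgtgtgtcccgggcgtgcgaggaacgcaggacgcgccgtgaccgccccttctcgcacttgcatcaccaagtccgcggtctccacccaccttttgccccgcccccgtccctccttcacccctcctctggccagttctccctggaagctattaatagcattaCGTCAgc
FOS: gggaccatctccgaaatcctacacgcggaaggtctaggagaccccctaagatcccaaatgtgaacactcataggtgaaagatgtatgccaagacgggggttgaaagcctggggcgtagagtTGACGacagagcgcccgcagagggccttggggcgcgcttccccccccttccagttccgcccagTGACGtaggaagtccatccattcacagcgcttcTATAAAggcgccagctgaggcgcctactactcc

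JUN and KLF6 each hold TGACATCA, starting at -45 and -119 from the start, which 2.93% of 32851 promoters of this length hold. TGACG was found in JUNB at -106, in FOS at -129 and -66 and, read on the opposite strand as CGTCA, in ATF3 at -7, as well as in FOSB at -60, beside 17.8% of all promoters. The FOS promoter also has TATAAA at -33, which 12.4% hold. The full element TGACGTCA, held by 1.55% of promoters, has no match in the windows of the 7 factors, and neither has the AP-1 element TGANTCA, held by 6.75%, nor the CArG box of serum response factor, held by 1.47%. Only the 250 bases before the start were searched, so that these elements may lie farther upstream. EGR1 had no entry, and its promoter was not searched. JUND had no match to any of the 6 motifs. The bases of C and G made up 47.6% of the JUND window, 68.8% of FOSB, 58.4% of FOS, 61.2% of JUN, 64.8% of KLF6, 65.2% of ATF3 and 66.4% of JUNB, where the median promoter had 52.4%. A match is a description of the letters, and binding was not measured.

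The next question of the design is whether IL-33 KO and WT kidneys differ. After UUO, 0 of 9 factors were called between genotypes by limma over 12 kidneys, where 0.011% of all genes, 2 in number, were called. Among these 2 was IL33, the deleted gene, with a log2 fold change of -2.36 (adjusted p = 9.55e-05 in limma). A gene was called here if its fold change exceeded 1.3 at an adjusted p below 0.25 and an unadjusted p below 0.05. The study set the same limits for probes but compared fewer WT kidneys. The 2 genes became 309 without WT kidney 3819, 94 without IL-33 KO kidney 3899, 31 without WT kidney 3820, 6 without WT kidney 3818 and 1 without any of the other 8. At an unadjusted p under 0.05 there were 1874 genes in all and 0 of the factors. The IL-33 KO mean was lower for 8 factors and higher for JUNB. For all 9, the values of the genotypes overlapped.

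For FOS the IL-33 KO mean was 7.60 and the WT mean 7.91, a difference of -0.30 with a 95% interval of -0.90 to 0.30 and an exact two-sided permutation p of 0.398 over 792 groupings. EGR1 differed by -0.35 (interval -1.20 to 0.50, exact p = 0.443) and ATF3 by -0.25 (interval -0.82 to 0.32, exact p = 0.420). These 3 differences were larger in set 1, at -0.65, -0.76 and -0.64, than in set 2, at -0.05, -0.06 and 0.02. With 10 groupings in set 1 an exact p cannot be under 0.1, and the exact p-values there were 0.5, 0.5 and 0.4, against 0.857, 0.886 and 0.943 in set 2. JUN differed by -0.09 (interval -0.34 to 0.16), JUNB by 0.08 (-0.60 to 0.75) and KLF6 by -0.07 (-0.62 to 0.48), and the smallest exact p of the 9 was that of FOSB, 0.110, for a difference of -0.10. The intervals of JUNB, EGR1 and KLF6 allow differences of over 0.4 on the log2 scale in either direction.

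The difference between the genotypes in the UUO response is the interaction of genotype and treatment. It was called for 0 of 9 factors and 0% of all genes at an adjusted p of 0.05 in limma. IL33, the deleted gene, was not called either, with a difference of responses of -1.41 (SE 0.32, adjusted p = 0.899 in limma). The test thus missed a known difference, and counts of 0 do not show equal responses. At an unadjusted p under 0.05 there were 860 genes and 0 factors. Of all genes, 1 was called without WT kidney 3818, 1 without WT kidneys 3818 and 3820, and 2 with the UUO kidneys of set 2 alone. Of the 9 factors, the difference of responses was largest for JUNB, where the response of IL-33 KO exceeded that of WT by 0.30, with responses of 2.03 and 1.73. With each kidney left out in turn it ran from 0.0431 to 0.4374 for JUNB and from -0.55 to 0.76 for EGR1, so that the rank was not kept. Control kidneys of the genotypes also gave 0 factors and 0% of all genes, with 664 genes and 0 factors at an unadjusted p under 0.05. There too IL33 was not called, at a difference of -0.95 (SE 0.28). The largest control difference of the 9 factors was that of EGR1, at -0.46 between IL-33 KO and WT, which rests on WT control 3811: without it the difference was 0.20. ATF3, called in WT and not in IL-33 KO, had a difference of responses of -0.24 (adjusted p = 0.989 in limma), so that its calls do not show a difference between genotypes.

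Of the 9 factors, 5 were among the genes that varied most between WT UUO kidneys. Over the 7 kidneys the SD of log2 intensity was 0.89 for EGR1, rank 29 of 18132 genes, 0.75 for JUNB, rank 53, 0.67 for FOS, rank 82, 0.58 for ATF3, rank 150, and 0.54 for KLF6, rank 196. JUN had 0.26, rank 1182, JUND 0.20, rank 2011, FOSB 0.12, rank 4937, and MYC 0.0738, rank 9805, where the median gene had an SD of 0.0787. In IL-33 KO UUO kidneys EGR1 had 0.45, rank 50, KLF6 0.39, rank 93, and ATF3 0.35, rank 130, while FOS and JUNB had 0.16 each. The WT spread lay in set 1: the SD of EGR1 was 1.45 over the 3 kidneys of set 1 and 0.34 over the 4 of set 2, and that of JUNB 1.29 and 0.14. Over the 5 WT UUO kidneys other than 3818 and 3820 it was 0.51 for EGR1, rank 30, 0.46 for ATF3, rank 44, 0.39 for JUNB, rank 98, 0.31 for FOS, rank 221, and 0.25 for KLF6, rank 407.

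Kidney 3818 had the lowest value of the 7 WT UUO kidneys for all 9 factors. Over all genes it was lowest for 15.5%, and over the 1263 genes called higher in WT after UUO for 26.0%. The highest value was in kidney 3819 for 5 factors (JUNB, JUND, ATF3, MYC and KLF6) and in kidney 3820 for the other 4 (FOS, FOSB, JUN and EGR1). Kidney 3820 was lowest for 58.7% of the genes called higher after UUO and highest for 3.80% of them, so its standing on FOS, JUN and EGR1 ran opposite to most genes that rose. Relative to the WT control mean, kidney 3820 was 2.12 higher for FOS and 3.65 for EGR1. It was 3.19 higher for HAVCR1, 4.28 for LCN2 and 1.31 for KRT20, whose WT controls, at 113.2 and 110.0, lay near background. Kidney 3818 was 0.07 higher for FOS, 0.21 for JUNB, 0.10 for ATF3 and 0.93 for EGR1, but 5.61 for HAVCR1 and 5.25 for LCN2. In these 2 kidneys the early factors and the injury markers thus stood in opposite order.

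**Figure D3:**
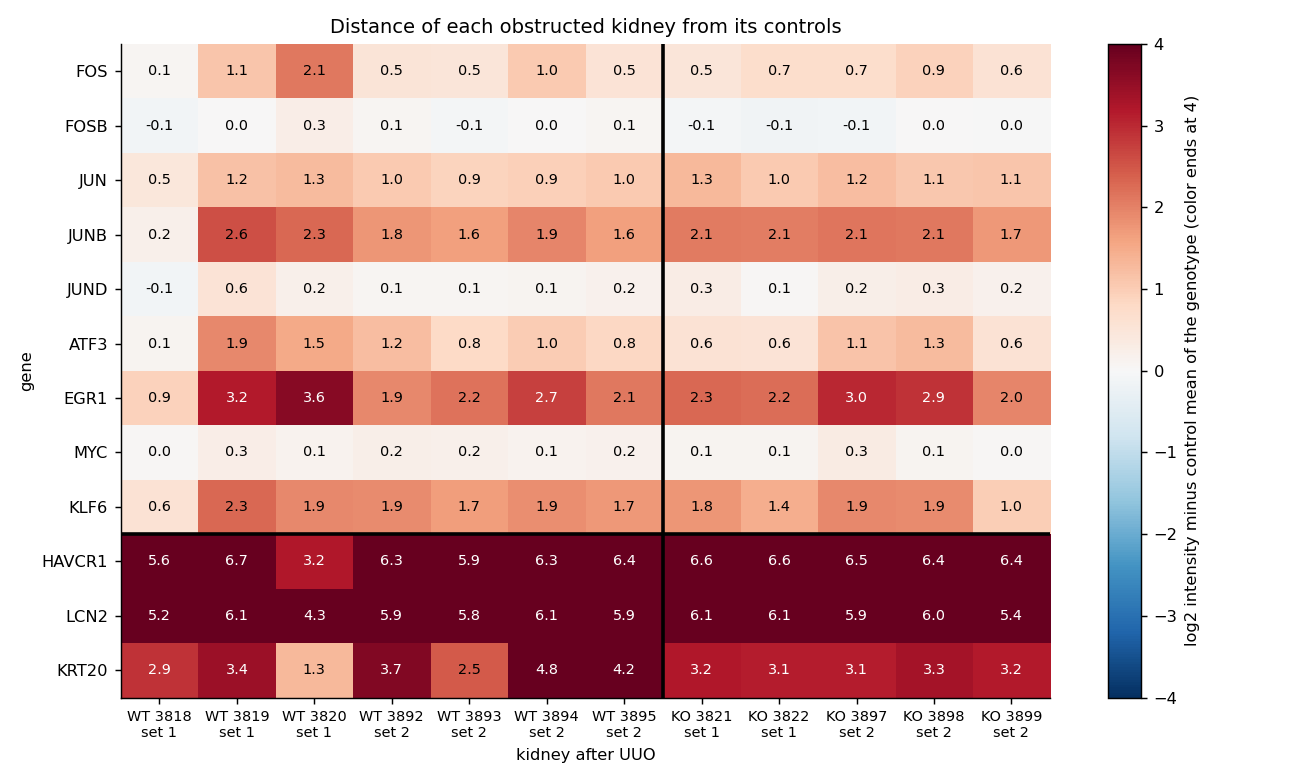
Log2 intensity of each UUO kidney minus the mean of its genotype's controls, for the 9 factors (upper rows) and 3 markers of injured tubule (lower rows). Color follows the printed difference and is saturated at 4. WT 3818 is near 0 for FOS, JUNB and ATF3 beside 5.61 for HAVCR1, and WT 3820 has the highest FOS and EGR1 beside the lowest HAVCR1.

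**Figure D4:**
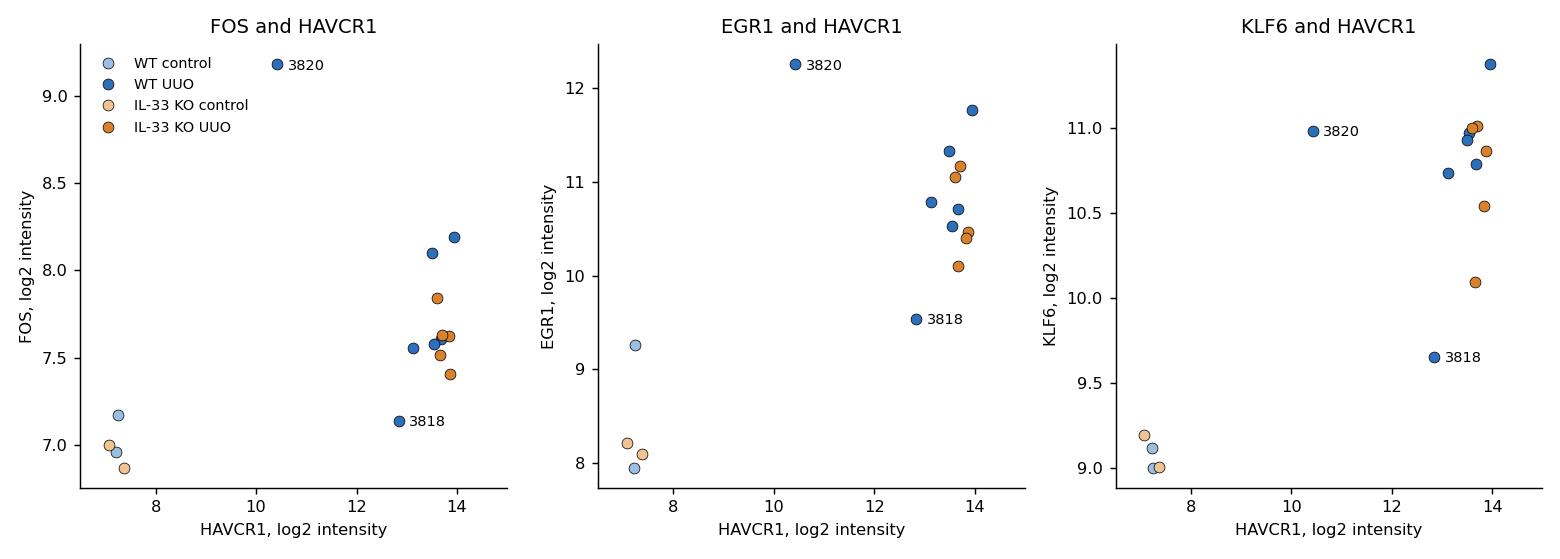
Log2 intensity of FOS, EGR1 and KLF6 (vertical axes) against HAVCR1 (horizontal axes) in 16 kidneys, 1 point each, colored by group. WT kidneys 3818 and 3820 lie apart from the other 10 UUO kidneys, 3820 with HAVCR1 at 10.42 and FOS at 9.18, and 3818 with HAVCR1 at 12.84 and FOS at 7.14.

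Markers of cell types also moved between these kidneys. The summed intensity of 3 proximal tubule markers was 18639 in kidney 3818 and 21110 in 3820, above the 5320 to 16133 of the other UUO kidneys, most of it from SLC34A1, while LRP2 in 3818, at 151.4, was below the 155.5 of 3895. That of 3 collecting duct markers was 1481 and 1303, above 680 to 1142, through AQP2 and SCNN1G, while ATP6V1B1 was highest in 3893. That of 4 loop of Henle and distal tubule markers was 14823 and 19179, above 7874 to 13612. Here UMOD and SLC12A1 were higher in both kidneys than in the others, while SLC12A3 was highest in 3821 and CALB1 in 3892. The 4 fibroblast and pericyte markers, of which DCN was the brightest, had their lowest sum in 3820, at 1720, where COL1A1 and PDGFRB were lowest of the UUO kidneys and DCN and PDGFRA were not. Of 9 leukocyte markers 8 had a row, and their summed intensity was 1570 and 1420 in WT controls and 1392 and 1161 in IL-33 KO controls. It was 2063 in WT UUO kidney 3818, 2886 in 3820, 4381 in 3819 and 3747, 3448, 4722 and 4603 in kidneys 3892, 3893, 3894 and 3895. In IL-33 KO UUO kidneys it was 4639, 4004, 4551, 4435 and 3010 in the order 3821, 3822, 3897, 3898 and 3899. CD14, a receptor of macrophages that injured tubule also makes, was the brightest of the 8 in 9 of the 12 UUO kidneys, and S100A8 in WT 3820 and in IL-33 KO 3897 and 3898. The neutrophil genes S100A8 and S100A9 were at 8.71 and 7.32 in kidney 3818, where the other WT UUO kidneys had 10.01 to 10.47 and 8.76 to 9.23, and PTPRC, ITGAM and CD3E, which define leukocytes and T cells, stayed at 6.75 to 7.15 in all 16 kidneys, near the floor of the table.

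The 3 red blood cell genes, led by HBA-A1, summed to 20452 in WT UUO kidney 3818, to 10472 and 10728 in 3819 and 3820, and to 3675 to 7959 in the 4 WT kidneys of set 2. WT controls had 19292 and 12635, and IL-33 KO controls 19141 and 18377, while in IL-33 KO UUO kidneys to 8145, 4406, 13099, 4902 and 6505. Kidney 3818 thus had the lowest leukocyte sum and the highest red cell sum of the UUO kidneys, together with the lowest WT level of each early factor. Its leukocyte sum was low through CD14, S100A8 and S100A9, while LY86 was lower in 4 other WT UUO kidneys and EMR1 and CD14 were lower in 3820. Markers also moved between UUO kidneys and controls. In WT and IL-33 KO, SLC12A1 had log2 fold changes of -3.12 and -3.13, AQP2 of -1.08 and -1.42 and COL1A1 of 1.17 and 1.63, all called in limma. SLC34A1 had -0.58 in WT, not called, and -1.52 in IL-33 KO, called, while UMOD and DCN were called in neither genotype. The part of tubule cells, fibroblasts, blood and leukocytes in the levels of the factors was not tested.

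The factors were compared in pairs over the 12 UUO kidneys, which are from both genotypes and sets. Not all of them rose and fell together: MYC and FOS had an r of 0.125 and JUND and FOSB of 0.355. Over the 36 pairs Pearson's r ran from -0.0014 for MYC and FOSB to 0.902 for KLF6 and JUNB, with a median of 0.701, and it was 0.901 for EGR1 and FOS. Without kidneys 3818 and 3820 the median over 10 kidneys was 0.600, EGR1 and FOS had 0.859 and KLF6 and JUNB 0.793, while EGR1 and FOSB went from 0.636 to 0.148, FOSB and FOS from 0.801 to 0.292 and JUN and FOS from 0.688 to 0.300. These values describe the kidneys at hand, with no r for pairs of other genes beside them.

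The genes of the whole table most like each factor over the 12 UUO kidneys, by Pearson's r, are given by the first 2 for each factor. They are the highest of a table of 18132 genes over few kidneys, where high r also arises between unrelated genes. The r to be had by chance was not computed. Of these 18 genes, 4 are in the list of other immediate early genes, AXUD1, HBEGF, PHLDA1 and GADD45A, and they go with EGR1, ATF3 and KLF6. That list holds 34 of the 18132 genes. EGR1 was most like AXUD1, now named CSRNP1 (r = 0.972), and HBEGF, a ligand of the EGF receptor (0.950). FOS was most like LIF, a cytokine of the IL-6 family (0.963), and CCRN4L, the nocturnin gene (0.957). JUNB was most like SOCS3, a feedback inhibitor of cytokine signals (0.959), and RASSF1 (0.936), ATF3 like TSC22D2 (0.953) and PHLDA1 (0.946), and KLF6 like GADD45A, a gene of the DNA damage response (0.943), and SNORA65 (0.913). JUN was most like TPBG (0.895) and DUSP4, a phosphatase of MAP kinases (0.894), and JUND like 1110012J17RIK (0.921) and MAPK13 (0.884). FOSB and MYC, with levels near background, were most like TOB2 (0.922) and SOX7 (0.899), and DOK2 (0.881) and 2900026A02RIK (0.871). Over the 10 kidneys other than 3818 and 3820, FOS had 0.817 with LIF, which then ranked 70 among all genes, JUNB 0.791 with SOCS3, rank 98, and JUN 0.641 with TPBG, rank 479. EGR1 had 0.950 with AXUD1, rank 4, ATF3 0.924 with TSC22D2, rank 5, KLF6 0.877 with GADD45A, rank 12, and JUND 0.937 with 1110012J17RIK, rank 1. FOSB had 0.867 with TOB2, rank 13, and MYC 0.874 with DOK2, rank 8. Of the second genes, SOX7 had 0.664 with FOSB, rank 467, CCRN4L 0.774 with FOS, rank 126, and DUSP4 0.777 with JUN, rank 89, and the other 6 had 0.839 to 0.914.

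Among 34 other immediate early genes, 9 rose after UUO in WT and 0 fell, and in IL-33 KO 9 rose and 1 fell, with 7 rising in both, where of all genes 6.97% were called higher and 8.22% lower in WT, and 10.6% and 11.2% in IL-33 KO. This list and those below were chosen with earlier results of these data known, so that their counts beside all genes are a description and not a test. GADD45A rose by a log2 fold change of 1.70 (SE 0.25) in WT and 1.75 (SE 0.26) in IL-33 KO, CYR61, a matrix protein induced by stretch, by 1.81 (SE 0.35) and 1.59 (SE 0.36), and NFKBIZ, a nuclear regulator of NF-kappaB, by 1.502 (SE 0.26) and 1.80 (SE 0.27). KLF2, a flow-induced factor of endothelium, fell by 0.34 in IL-33 KO (adjusted p = 0.0414 in limma) and had -0.33 in WT (adjusted p = 0.0510). The list's median log2 fold change was 0.12 in WT and 0.13 in IL-33 KO. When kidneys are left out, here and in the lists below, the number of all genes called changes too. In IL-33 KO that number was 3955 over all kidneys and 4565 without WT kidneys 3818 and 3820. The WT count was 5 without control 3811 and 3 without control 3812, and the IL-33 KO count of 10 was 6 without control 3813 or 3814 and 16 without WT kidneys 3818 and 3820.

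Of 18 other AP-1 and ATF factors, 3 rose in each genotype, 2 of them in both, and 0 fell, with medians of 0.03 and 0.04, beside 6.97% of all genes higher in WT and 10.6% in IL-33 KO. ATF5, a stress-response factor, rose by 1.57 (SE 0.28) in WT and 1.85 (SE 0.29) in IL-33 KO, and CREB3, a factor anchored in the endoplasmic reticulum, by 0.41 (SE 0.07) and 0.65 (SE 0.08). ATF4, the main factor of the integrated stress response, rose by 1.202 (SE 0.30) in IL-33 KO and had 0.86 (SE 0.28, adjusted p = 0.0546 in limma) in WT. The WT count was 1 without control 3811 and 6 without kidney 3818, and the IL-33 KO count was 5 without kidney 3818.

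Upstream, of 21 MAP kinases, serum response factor and partners, 3 rose and 3 fell in WT and 3 rose and 4 fell in IL-33 KO, with medians of 0.00 and 0.01, where of all genes 6.97% rose and 8.22% fell in WT and 10.6% and 11.2% did in IL-33 KO. MAP3K1, a kinase upstream of JNK, rose by 0.91 (SE 0.16) and 1.09 (SE 0.16), and MAP2K3, an activator of p38, by 0.59 (SE 0.14) and 0.49 (SE 0.14), in WT and IL-33 KO. MAPKAPK2, a target of p38, rose by 0.57 (SE 0.13) in WT and had 0.34 (adjusted p = 0.104 in limma) in IL-33 KO. MAPK14, which encodes p38 alpha, fell by 0.40 in WT and by 0.56 in IL-33 KO, and MAPK8, which encodes JNK1, fell by 0.36 and by 0.505. MAP2K7, an activator of JNK, fell by 0.25 in IL-33 KO and had -0.08 in WT (adjusted p = 0.242). The total of 6 in WT was 2 without control 3811 and 1 without control 3812, and that of 7 in IL-33 KO was 3 without control 3813 and 4 without control 3814.

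Of 15 dual specificity phosphatases and feedback inhibitors, which switch these kinases off, 2 rose in each genotype, 1 of them in both, and 0 fell, with medians of 0.07 and 0.06. This small count stands beside 6.97% of all genes called higher in WT and 10.6% in IL-33 KO. DUSP8 rose by 1.21 (SE 0.31) in WT and 1.17 (SE 0.32) in IL-33 KO, DUSP14 by 0.57 (SE 0.11) in IL-33 KO, with 0.31 (adjusted p = 0.0627 in limma) in WT, and DUSP2 was called in WT and not in IL-33 KO (adjusted p = 0.0285 and 0.495). The group means of DUSP2, 6.86 to 7.02, are near background, so that no fold change is given. The WT count was 0 without control 3811 or 3812 and 4 without kidney 3818, and the IL-33 KO count was 1 without control 3813 or 3814.

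Of 20 genes known as AP-1 targets, 8 rose and 3 fell in WT and 10 rose and 3 fell in IL-33 KO, 7 rising and 3 falling in both, with medians of 0.25 and 0.28, beside shares of all genes of 6.97% higher and 8.22% lower in WT and of 10.6% and 11.2% in IL-33 KO. This list, too, was chosen with earlier results of these data known. TIMP1, an inhibitor of matrix metalloproteinases, rose by 4.05 (SE 0.39) in WT and 4.76 (SE 0.41) in IL-33 KO, with adjusted p-values of 2.62e-05 and 5.28e-06 in limma. LGALS3, the galectin-3 gene, rose by 1.92 (SE 0.21) and 2.44 (SE 0.22), and HMOX1, heme oxygenase 1, by 1.65 (SE 0.51) and 1.90 (SE 0.53). VEGFA, the endothelial growth factor, fell by 0.49 and by 0.63, and its receptor FLT1 fell by 0.37 and by 0.33. MMP13, a collagenase, was called lower in both genotypes, to means of 7.02 and 7.01 near background, so that no fold change is given. The WT total of 11 was 5 without control 3811 and 4 without control 3812.

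Of 12 partners and antagonists of the MYC family, 0 were called in WT and 1 fell in IL-33 KO, with medians of -0.06 and -0.01. It was MLXIPL, a glucose-responsive factor, which fell by 0.41 in IL-33 KO and had -0.24 (adjusted p = 0.120 in limma) in WT, and it was not called without IL-33 KO control 3813. Of 16 genes known as MYC targets, 5 rose and 1 fell in WT and 7 rose and 1 fell in IL-33 KO, with medians of 0.285 and 0.291, where WT had 6.97% of all genes higher and 8.22% lower, and IL-33 KO 10.6% and 11.2%. NOP56 and NOP58, proteins of small nucleolar particles, rose by 0.89 (SE 0.21) and 0.99 (SE 0.20) in WT and by 0.97 (SE 0.21) and 0.68 (SE 0.21) in IL-33 KO, and NPM1, nucleophosmin, by 0.70 (SE 0.15) and 0.97 (SE 0.16). ODC1, the first enzyme of polyamine synthesis, fell by 0.73 in WT and by 1.21 in IL-33 KO. The WT total of 6 was 2 without control 3811, 1 without control 3812 and 11 without kidneys 3818 and 3820, and the IL-33 KO total of 8 was 3 without control 3813 and 5 without control 3814.

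Of 11 other Kruppel-like factors, 0 rose and 2 fell in WT and 2 rose and 2 fell in IL-33 KO, with medians of 0.02 in both, against 6.97% of all genes higher and 8.22% lower in WT and 10.6% and 11.2% in IL-33 KO. KLF9, a glucocorticoid-induced factor, fell by 0.47 in WT and by 0.71 in IL-33 KO. KLF15, a regulator of metabolism, fell by 0.32 in WT. In IL-33 KO it was called lower, to a mean of 6.98 near background, so that no fold change is given. KLF5, a factor of proliferating epithelium, rose by 0.86 (SE 0.26) and KLF13 by 0.37 (SE 0.11) in IL-33 KO, with 0.76 (adjusted p = 0.0556 in limma) and 0.19 (adjusted p = 0.303) in WT. The WT count of 2 was 0 without WT control 3811 or 3812 or WT UUO kidney 3892, 3893 or 3895, 1 without any of the 5 IL-33 KO UUO kidneys and 5 without kidneys 3818 and 3820, and it was 1 with the deposited intensities taken to log2 or with median centring and 0 with the 2 groups alone, while the IL-33 KO count of 4 was 0 without control 3813 and 1 without control 3814. With the UUO kidneys of set 1 alone, when 188 of all genes were called in WT, the WT count was 4 for the AP-1 targets and 0 for each of the other 7 lists. Over all settings but single kidneys left out, the IL-33 KO count was 2 to 16 for other immediate early genes and 8 to 15 for AP-1 targets. It was 3 to 10 for MYC targets, 0 to 5 for Kruppel-like factors and 2 to 6 for AP-1 and ATF factors. For MAP kinases and partners it was 4 to 11, for phosphatases 1 to 3 and for MYC partners 1 to 2. Of the genes in the 8 lists, 0 were called between genotypes after UUO and 0 for the difference of responses in limma. At an unadjusted p under 0.05 between genotypes there were 1 to 3 genes in each list, in sum 15 of 147 or 10.2%, beside 10.3% of all genes.

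**Figure D5:**
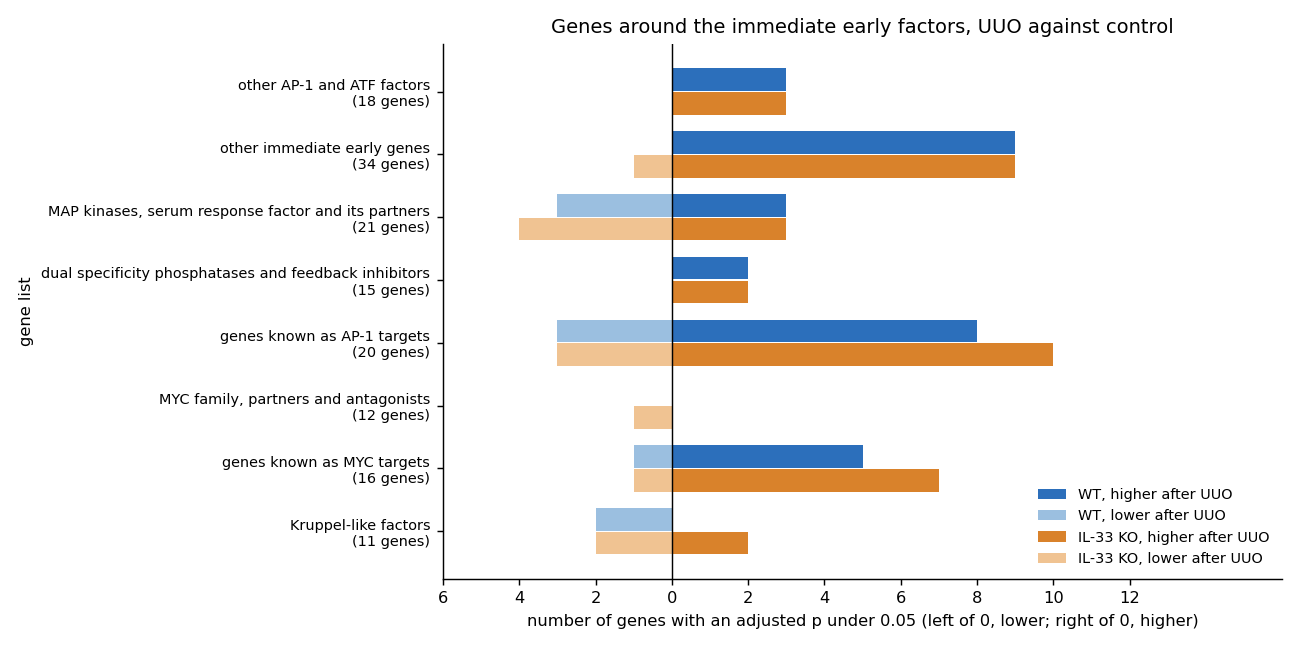
Number of genes (horizontal axis) of each list that had an adjusted p under 0.05 after UUO against control, higher to the right of 0 and lower to the left, in WT and IL-33 KO kidneys. Both directions summed, the AP-1 targets have the largest counts, with 8 higher and 3 lower of 20 in WT and 10 higher and 3 lower in IL-33 KO. The lists were chosen with earlier results of these data known.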

How the data were processed

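The authors imported the bead arrays with beadarray and deposited a table of 16 arrays by 18132 genes on a linear intensity scale, and the submitters' processing notes name BeadStudio 2. Background correction and normalization are not given in the sources used here, but array medians of 132.3 to 133.4 show that values had been brought to a common scale. Intensities ran from 95.5 to 23471, with no detection p-values, and precision is limited by how few arrays there are. Intensities were quantile-normalized, taken to log2 and fitted by moderated linear models (R 4.3.3, limma 3.58.1), whose p-values were adjusted by the method of Benjamini and Hochberg across the table. UUO responses, their difference and the control contrast came from 1 model of 4 groups at an adjusted p of 0.05. IL-33 KO and WT after UUO were compared over 12 arrays at the threshold of the study. With 7 and 2 kidneys there are 36 groupings and with 5 and 2 there are 21, and an exact test of 5 against 2 kidneys can scarcely reach the threshold, so the model over all groups was used. Exact two-sided permutation tests, tables and plots used Python 3.11.15, numpy 2.4.6, pandas 2.3.3 and matplotlib 3.10.9. The table's symbols were matched to RefSeq. From each list the up to 3 largest rises and 3 largest falls among called genes are named, with 2 most similar genes per factor. Members and lists were chosen with earlier results of these data known. Alternatives were other normalizations, array weights, an intensity trend for prior variances, brighter genes alone, each set of mice, the set as a block, the groups compared alone and each kidney left out, and, chosen after seeing the data, fits, spread and correlations without kidneys 3818 and 3820 and the list counts under all settings.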

Additional observations from a re-analysis of the deposited data

Results flagged for a closer look

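Each factor's 7 WT UUO and 5 IL-33 KO UUO values were searched for a kidney whose gap to its nearest neighbour is large against the range of the group. Of 18 groups 4 held such a kidney, and by the rule's 95% critical value chance gives about 1 in 20 groups of independent values, while these factors share their kidneys. WT UUO kidney 3818 stood below the others for JUNB, at a log2 intensity of 8.02 (gap 0.605 of the range), and for KLF6, at 9.65 (0.628). IL-33 KO UUO kidney 3899 stood below the others for JUNB, at 9.33 (0.788), and kidney 3897 above the others for MYC, at 7.18 (0.739).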

How the results depend on the processing

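The 5 and 4 factors called in WT and IL-33 KO were still 5 and 4 with the deposited intensities taken to log2, with median centring, with a trend of the prior variance and with brighter genes alone, which leave out FOSB and MYC. The WT count ranged from 2 to 5 as each kidney was left out, and was 0 with the UUO kidneys of set 1, 6 with set 2, 3 with the 2 groups alone and 7 with array weights, and the IL-33 KO count was 1 with set 1, 7 with set 2 and 6 with the 2 groups alone. All genes called in these fits were 188, 4241, 1778 and 4023 in WT, where 2754 were reported, and 2258, 4453 and 4262 in IL-33 KO, where 3955 were. The cause was not tested. Genotype and interaction counts of the factors were 0 under each setting run. Directions that turned were those of differences not called. Between the responses of the genotypes, FOS was 0.0856 and ATF3 0.0295 with set 2, and JUND was -0.0266 and EGR1 -0.30 with set 1. With each kidney left out in turn that difference ran from -0.30 to 0.0429 for FOS, -0.0068 to 0.13 for JUND, -0.55 to 0.76 for EGR1, -0.0803 to 0.0038 for MYC and -0.30 to 0.0413 for KLF6. Between controls it ran from -0.0310 to 0.0385 for FOSB, -0.0995 to 0.0742 for ATF3, -1.11 to 0.20 for EGR1, -0.0282 to 0.0435 for MYC and -0.0567 to 0.13 for KLF6. Between genotypes after UUO it ran from -0.17 to 0.22 for JUNB, -0.0856 to 0.0263 for JUND, -0.0727 to 0.0015 for MYC and -0.26 to 0.0786 for KLF6, JUNB was -0.11 without kidneys 3818 and 3820, JUND 0.0223 and ATF3 0.0168 with set 2, and KLF6 0.0336 with set 1. All genes called between genotypes after UUO, 2 in number, were 1 to 309 as each kidney was left out, the highest without WT kidney 3819, 1 with the set as a block, 0 with set 1, 81 with set 2, 43 without kidneys 3818 and 3820, 80 with array weights, 127 with all 16 arrays in 1 model and 168 with brighter genes alone. The labels pair no kidneys between groups. Control groups of 2 kidneys, with 1 left when a control is dropped and then assumed to vary like the others, limit every UUO response.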
